A study of Mus musculus with 4 samples.

Results

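Bone morphogenetic protein (BMP) signaling was followed in mouse larynx tissue at E10.5 through 10 genes, chosen by name: the ligands *Bmp2*, *Bmp4*, *Bmp5* and *Bmp7*, the receptors *Bmpr1a*, *Bmpr1b* and *Bmpr2*, and the secreted antagonists *Nog*, *Grem1* and *Chrd*. They are 10 of the 46983 genes listed, each has a single entry, and all 10 were among the 16972 genes with a mean of at least 1 TPM (transcripts per 1000000, a length-scaled level) that entered the test. RNA was sequenced from 4 libraries, 2 of *Shh*-/- and 2 of wild-type (WT) tissue, each a pool of 3 larynxes from embryos of 32 to 35 somites. The mutants carried the null allele *Shh*tm1amc in the germline, so no single tissue was targeted, and both groups were of the Swiss Webster background. The study's text calls the mutant pools *Shh*-/-, while the genotype field of the sample labels writes Shh+/-, and *Shh*-/- is used here. The tissue was labeled larynx and described in the study's methods as vocal fold tissue, and no cell type was sorted from it.

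BMPs are secreted dimers of the TGFβ superfamily. They bring type I receptors (BMPR1A, BMPR1B) and type II receptors (BMPR2) together, and the active complex phosphorylates SMAD1, SMAD5 and SMAD9, which enter the nucleus with SMAD4 and turn on targets such as the *Id* and *Msx* genes. Noggin, chordin and gremlin bind the ligands outside the cell and keep them from their receptors. In the foregut, BMP signaling from the ventral mesenchyme is known for its part in setting the respiratory fate of the endoderm, and the balance of ligand and antagonist patterns the dorsal and ventral sides. The comparison asks how the transcripts of this pathway stood in the larynx without *Shh*, the ligand of Hedgehog (HH) signaling.

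The libraries held from 1.10 to 2.47 gigabases of aligned sequence, derived from the ratio of coverage to FPKM, and pool 1 of *Shh*-/- was the shallowest, with 1.10 against 2.28 to 2.47 in the other 3. Transcripts of *Shh* were at 10.4 and 10.8 TPM in the mutant pools, against 23.7 and 42.1 TPM in the WT pools, as totals over the whole gene. *Ptch1*, the HH receptor and a direct HH target, was at 12.9 and 13.8 TPM against 57.8 and 55.1 TPM, and fell with a limma adjusted p of 0.0319. *Gli1*, a further HH target, was at 3.20 and 8.45 TPM against 41.7 and 32.9 TPM. Neither *Gli1* nor *Shh* itself passed the threshold of 0.05 (limma adjusted p = 0.0715 and 0.0895), and 4 of 10 HH targets did, all lower. The epithelial markers *Epcam* and *Krt8* were at 84.0 TPM or more in every pool and the mesenchymal gene *Pdgfra* at 82.6 TPM or more. Other defining markers were below WT in both mutant pools. *Foxa2*, a foregut endoderm factor, was at 5.34 and 9.12 TPM against 29.2 and 39.8 TPM, *Nkx2-1*, the respiratory endoderm factor, at 6.16 and 3.61 TPM against 15.9 and 17.9 TPM, and the mesenchymal *Foxf2* at 0.24 and 1.24 TPM against 20.3 and 20.0 TPM. *Foxa1*, *Cdh1* and *Trp63* of the epithelial list also lay below WT without overlap. Of the 15 epithelial markers, 5 lay below WT without overlap and 4 above, *Epcam* and *Krt8* being among those above. Of the 14 mesenchymal markers, 6 lay below (*Foxf2* among them) and 6 above (*Pdgfra* and *Twist1* among them). Over all tested genes 22.7% lay below and 38.0% above. In whole tissue, fewer cells of a type and less RNA per cell cannot be told apart.

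Over all 16972 tested genes the median log2 fold change (*Shh*-/- minus WT, on log2(TPM + 1)) was 0.08, and it was −0.05 after each library was centred on its median, so each member's change is read against this shift. Of the 10 members, 4 were above WT and 6 below it in their mean, with a median log2 fold change of −0.27. None passed an adjusted p under 0.05 in limma, where 0.725% of all tested genes passed, 0.560% as higher and 0.165% as lower in *Shh*-/-. The study's own analysis of these pools called more genes at an adjusted p under 0.05, so the number called depends on the method. At an unadjusted p under 0.05 there were 4 members, *Bmp2*, *Bmp4*, *Bmpr1a* and *Grem1*, against 24.8% of all tested genes. *Bmp4* and *Grem1* were the 2 higher ones (17.5% of all tested genes) and *Bmp2* and *Bmpr1a* the 2 lower ones (7.22%). Both *Shh*-/- pools lay above both WT pools for 3 members (38.0% of all tested genes) and below them for 4 (22.7% of all tested genes). Together 7 of 10 members had pools that did not overlap, beside 60.7% of all tested genes, so the values are a description gene by gene. Median centring, quantile normalization and a correction for GC content and transcript length each left 3 members above WT and 7 below, *Bmp7* being the gene that turned.

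**Figure D1:**
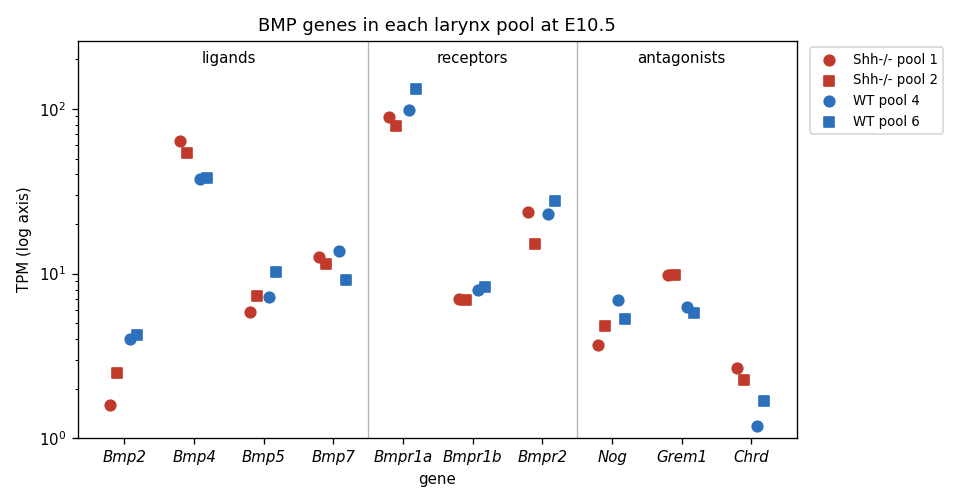
TPM (vertical axis, log scale) of the 10 BMP genes (horizontal axis) in each of the 4 pools, with *Shh*-/- in red and WT in blue, 1 point per library. The red points lie above the blue for *Bmp4*, *Grem1* and *Chrd* and below them for *Bmp2*, *Bmpr1a*, *Bmpr1b* and *Nog*.

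The sequence just upstream of the start site is shown for *Bmp4*, *Grem1* and *Chrd*, the members whose mutant pools both lay above WT. RefSeq promoters on GRCm38.p6, the assembly of mm10, were found for 7 of the 10 members, and *Bmp2*, *Bmp7* and *Nog* were not among them. Each run is the 250 bases before the start, 5′ to 3′ on the strand of the gene. Capitals mark the letters GGGCGG (the GC box bound by SP factors), GGCGCC (a GC-rich SMAD element) and CCAAT, searched on both strands, as was TATAAA, which was in none of the 3. In *Chrd* 2 of the GC boxes overlap.
*Bmp4* (chr14:46390670-46390919, minus strand): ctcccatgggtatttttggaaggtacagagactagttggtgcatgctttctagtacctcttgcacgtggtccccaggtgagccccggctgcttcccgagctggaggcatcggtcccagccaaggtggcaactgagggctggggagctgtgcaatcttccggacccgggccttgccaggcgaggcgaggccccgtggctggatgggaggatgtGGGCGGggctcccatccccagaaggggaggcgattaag
*Grem1* (chr2:113758649-113758898, minus strand): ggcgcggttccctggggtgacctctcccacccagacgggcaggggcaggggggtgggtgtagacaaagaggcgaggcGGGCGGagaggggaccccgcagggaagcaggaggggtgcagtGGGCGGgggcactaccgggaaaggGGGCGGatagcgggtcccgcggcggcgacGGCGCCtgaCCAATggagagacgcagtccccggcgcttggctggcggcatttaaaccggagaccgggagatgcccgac
*Chrd* (chr16:20732877-20733126, plus strand): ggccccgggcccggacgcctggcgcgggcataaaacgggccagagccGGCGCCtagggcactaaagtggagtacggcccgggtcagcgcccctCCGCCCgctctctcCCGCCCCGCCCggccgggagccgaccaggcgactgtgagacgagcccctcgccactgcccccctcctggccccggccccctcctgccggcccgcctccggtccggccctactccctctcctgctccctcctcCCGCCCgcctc

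All 3 stretches were rich in G and C, at 63.2% for *Bmp4*, 72.0% for *Grem1* and 78.0% for *Chrd*, against a median of 52.4% over 32851 promoters. *Bmp4* had 1 GC box, 38 bases before the start, *Grem1* had 3 and *Chrd* had 4. The GC box was in 32.7% of all promoters. TATAAA was in 12.4% and CCAAT, found once in *Grem1*, in 33.8% of all promoters. GGCGCC was found once in *Grem1* and once in *Chrd* and not in *Bmp4*, and in 9.59% of all promoters. These features were not particular to members above WT. Among members with a lower mean in *Shh*-/-, *Bmpr1a* (78.8% G and C) had 4 GC boxes and GGCGCC once, and *Bmpr2* (64.0%) had 1 of each. *Bmp5* (42.8%) and the windows of *Bmpr1b* (46.8 to 56.4%) had neither. The *Bmpr1b* windows precede starts at 141931420, 141931588 and 141982264, all inside the gene, whose 5′ end as deposited is 142169425. The stretch before that 5′ end was not among the windows, so it was not searched for any of these letters. The GLI consensus GACCACCCA, through which HH signaling acts on its targets, was in none of the 9 windows of members and in 0.225% of all promoters, and the palindromic SMAD element GTCTAGAC was in none of the 9 and in 0.167%. A match is a matter of letters and no evidence of binding, and these windows hold no distant enhancers.

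*Bmp4* was the most abundant ligand transcript in every pool. This ligand of the ventral foregut mesenchyme (chr14:46383520-46390669 of mm10, minus strand) was at 63.9 and 54.1 TPM in the mutant pools, against 37.7 and 38.2 TPM in the WT pools. Both mutant pools were above both WT pools, and the gap between the groups exceeded the spread within either. The means were 59.0 ± 6.95 and 37.9 ± 0.36 TPM (SD, n = 2 each), a ratio of 1.55. The log2 fold change was 0.62 (standard error 0.13, 95% interval 0.29 to 0.95) with a limma adjusted p of 0.0987, the lowest among the members but above 0.05. At a looser adjusted p under 0.10 *Bmp4* was the 1 member called, where 5.06% of all tested genes passed, 3.95% as higher. This looser call was lost after correction for GC content and length (limma adjusted p = 0.148), median centring (0.121), quantile normalization (0.108), a pseudocount of 0.1 (0.104), a fit without trend (0.13) or without the TPM filter (0.172), and with any 1 pool left out (0.139 to 0.343). The gene model *Gm15222* overlaps *Bmp4* on the opposite strand and was at 9.30 and 7.32 TPM in *Shh*-/-, against 5.16 and 3.93 TPM in WT. The libraries were stranded, and whether strand was used to assign the reads is not given in the sources used here. Reads of this pair could therefore not be told apart with certainty.

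*Bmp2*, the closest relative of *Bmp4* among the ligands (chr2:133552159-133562885, plus strand), lay on the other side of WT. It was at 1.60 and 2.50 TPM in the mutant pools, against 4.03 and 4.24 TPM in the WT pools, without overlap. The WT level was 2.02 times the mutant level (4.13 ± 0.15 against 2.05 ± 0.64 TPM, SD, n = 2 each). The log2 fold change was −0.77 (standard error 0.23, 95% interval −1.36 to −0.17; limma adjusted p = 0.149). With a mean coverage of 1.05 reads per base in *Shh*-/- pool 1, *Bmp2* was thinly read there, and the log2 fold change was −0.55 without that pool. Because *Bmp4* and *Bmp2* stood on opposite sides, their ratio separated the pools widely. *Bmp4* exceeded *Bmp2* by 39.9 and 21.6 times in the *Shh*-/- pools and by 9.35 and 9.01 times in WT.

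*Bmp5* and *Bmp7* form the second ligand subgroup, and their pools overlapped. *Bmp5* (chr9:75775364-75900310), which contributes to mesenchyme and cartilage development, was at 5.88 and 7.28 TPM in *Shh*-/-, against 7.25 and 10.2 TPM in WT (a log2 fold change of −0.35, 95% interval −0.92 to 0.23, limma adjusted p = 0.373). The second mutant pool and the lower WT pool were nearly equal. After correction for GC content and length the log2 fold change of *Bmp5* was −0.08, and it was −0.13 without WT pool 6, −0.21 without *Shh*-/- pool 1 and −0.56 without WT pool 4. *Bmp7* (chr2:172868012-172940321) was at 12.7 and 11.5 TPM in *Shh*-/-, against 13.7 and 9.19 TPM in WT, so that the mutant pools lay between the WT pools. Its log2 fold change of 0.10 (95% interval −0.47 to 0.67, limma adjusted p = 0.807) was within the spread of the pools, and its interval leaves room for a difference on either side.

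The ligand transcripts summed to 84.1 and 75.3 TPM in the *Shh*-/- pools and to 62.6 and 61.8 TPM in WT, a ratio of means of 1.28. The makeup of this sum differed. *Bmp4* was 76.0 and 71.8% of it in *Shh*-/- and 60.2 and 61.8% in WT. *Bmp2* was 1.90 and 3.32% against 6.44 and 6.86%, and *Bmp5* 6.99 and 9.66% against 11.6 and 16.4%. For each of these 3 ligands the shares of the genotypes did not overlap, whereas those of *Bmp7* did (15.1 and 15.2% in *Shh*-/-, 21.8 and 14.9% in WT). Shares within a sum are not independent, since a larger share of *Bmp4* lowers the others. They are given without a test, and an exact two-sided permutation test of 2 pools against 2 cannot go below 0.33.

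**Figure D2:**
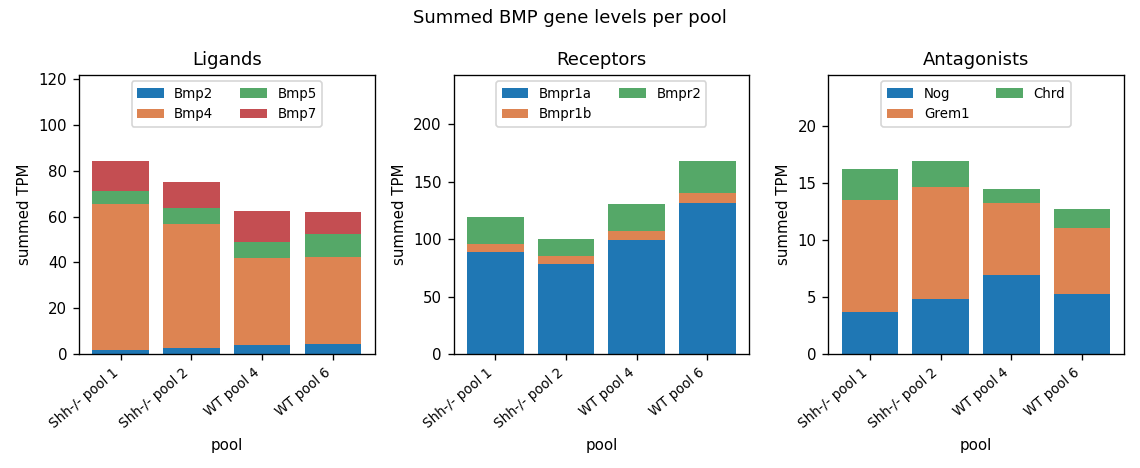
TPM summed over the ligands, the receptors and the antagonists (vertical axes, from 0) in each of the 4 pools (horizontal axes), with each gene as a colored segment. *Bmp4* fills 71.8 to 76.0% of the ligand bar in *Shh*-/- and 60.2 to 61.8% in WT, and *Bmpr1a* fills most of every receptor bar.

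All 3 receptor genes were lower in the mean in *Shh*-/- larynx, and none passed the test. *Bmpr1a* (chr14:34410734-34503341), the broadly expressed type I receptor that the early embryo requires, had the most transcripts of the 10 members in every pool. It was at 88.9 and 78.3 TPM in *Shh*-/-, against 99.2 and 131.8 TPM in WT, without overlap, although the WT pools differed from each other by more than the nearest mutant and WT pools did. The log2 fold change was −0.45 (standard error 0.17, 95% interval −0.89 to −0.02; limma adjusted p = 0.193). It was −0.25 without WT pool 6, and −0.27 after correction for GC content and length. The second type I receptor, *Bmpr1b* (chr3:141837136-142169425), known for its role in cartilage condensations, was at 6.97 and 6.96 TPM in *Shh*-/-, against 8.00 and 8.30 TPM in WT. Its pools did not overlap, and the log2 fold change was −0.20 (95% interval −0.59 to 0.19, limma adjusted p = 0.438), or −0.12 after correction for GC content and length.

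*Bmpr2* (chr1:59763400-59879014), the type II receptor specific to BMPs, was at 23.7 and 15.2 TPM in *Shh*-/-, against 23.0 and 27.5 TPM in WT. The first mutant pool lay between the WT pools and the second below both. The log2 fold change of −0.39 (95% interval −1.01 to 0.23, limma adjusted p = 0.36) depended on the pool, being −0.08 without *Shh*-/- pool 2 and −0.69 without *Shh*-/- pool 1. It was −0.11 after correction for GC content and length. The gene model *Gm38125* overlaps *Bmpr2* on the same strand, where strand cannot separate the reads. It was at 1.99 and 0.70 TPM in *Shh*-/-, against 1.18 and 0.83 TPM in WT. The receptor transcripts summed to 119.6 and 100.4 TPM in *Shh*-/- and to 130.2 and 167.7 TPM in WT. The makeup of the sum overlapped between genotypes, with *Bmpr1a* at 74.3 and 78.0% in *Shh*-/- and at 76.2 and 78.6% in WT. *Bmpr1a* exceeded *Bmpr1b* by 12.8 and 11.3 times in *Shh*-/- and by 12.4 and 15.9 times in WT.

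Among the antagonists, 2 were above WT and 1 below. *Grem1* (chr2:113746164-113758646, minus strand), which encodes gremlin and is best known from the limb bud, where SHH maintains it, was at 9.83 and 9.77 TPM in *Shh*-/-, against 6.30 and 5.73 TPM in WT. The mutant pools were nearly identical and both above WT, at 1.63 times the WT mean. The log2 fold change was 0.62 (standard error 0.16, 95% interval 0.22 to 1.03; limma adjusted p = 0.122). *Chrd* (chr16:20733127-20742384, plus strand), the chordin gene, was at 2.67 and 2.27 TPM in *Shh*-/-, against 1.19 and 1.68 TPM in WT, again without overlap. Its log2 fold change was 0.52 (95% interval −0.07 to 1.10, limma adjusted p = 0.234), and 0.14 after correction for GC content and length. The mean coverage of *Chrd* ran from 1.04 to 2.26 reads per base, so its values rest on few reads. *Thpo* overlaps *Chrd* on the opposite strand and was at 0.89 and 0.71 TPM in *Shh*-/-, against 1.33 and 0.85 TPM in WT. In WT pool 4 it was above *Chrd* itself, and reads of this pair could likewise not be told apart with certainty.

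*Nog* (chr11:89300638-89302332), the noggin gene, which is expressed in the notochord and dorsal foregut, was the antagonist below WT. It was at 3.67 and 4.82 TPM in *Shh*-/-, against 6.95 and 5.27 TPM in WT, where the second mutant pool and the lower WT pool were close. The log2 fold change was −0.44 (standard error 0.22, 95% interval −1.01 to 0.14; limma adjusted p = 0.287). It was −0.68 after correction for GC content and length, −0.27 without WT pool 4 and −0.28 without *Shh*-/- pool 1. The 3 antagonists together summed to 16.2 and 16.9 TPM in *Shh*-/- and to 14.4 and 12.7 TPM in WT. *Grem1* was 60.8 and 57.9% of this sum in *Shh*-/- and 43.7 and 45.2% in WT, and *Nog* was 22.7 and 28.6% against 48.1 and 41.6%. The most abundant antagonist was *Grem1* in both *Shh*-/- pools and *Nog* in WT pool 4, while in WT pool 6 *Grem1* was slightly above *Nog*. The ligand sum was 5.20 and 4.47 times the antagonist sum in *Shh*-/- and 4.34 and 4.87 times in WT, a ratio chosen after the values were seen, and the genotypes overlapped in it.

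**Figure D3:**
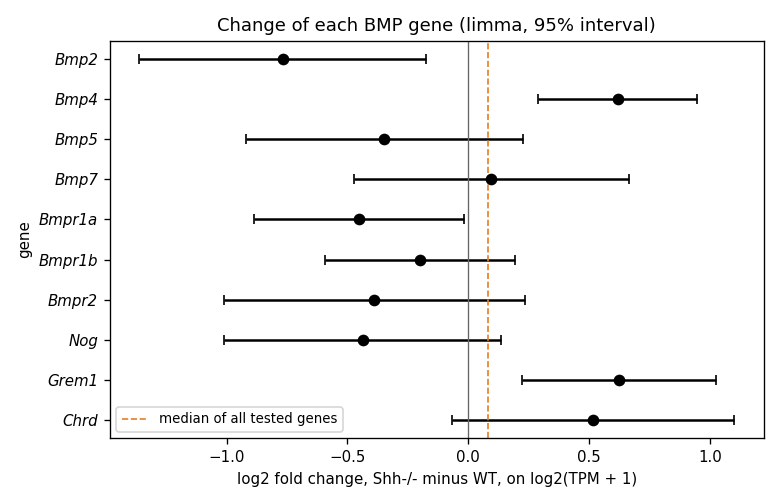
Log2 fold change of each BMP gene (horizontal axis, *Shh*-/- minus WT on log2(TPM + 1)) with its 95% interval from limma as bars, and the median of all tested genes (0.08) as a dashed line. The intervals of *Bmp4* and *Grem1* lie above 0, those of *Bmp2* and *Bmpr1a* below it, and the other 6 cross it. The intervals are not adjusted for the number of genes tested.

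The order of the levels, per transcript length, was *Bmpr1a*, *Bmp4*, *Bmpr2* and *Bmp7* from the top in both genotypes. Below them, *Bmp5*, *Bmpr1b*, *Nog*, *Grem1*, *Bmp2* and *Chrd* followed in WT, where the neighbors *Bmp7* and *Bmp5*, *Bmp5* and *Bmpr1b*, and *Nog* and *Grem1* overlapped in their pools. In *Shh*-/- the order was *Grem1*, *Bmpr1b*, *Bmp5*, *Nog*, *Chrd* and *Bmp2*, with overlap between *Bmpr1b* and *Bmp5* and between *Chrd* and *Bmp2*. *Grem1* stood at place 8 in WT and at place 5 in *Shh*-/-.

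Other genes of the pathway were taken from a list of 65 by role, of which *Hjv* was not matched by symbol. Of the 64 found, 51 were tested, 37 with a higher mean in *Shh*-/- and 14 with a lower one, and the median log2 fold change was 0.26 (0.09 after correction for GC content and length, with 30 higher), beside 0.08 for all tested genes. Of all tested genes, 9895 of 16972 had a higher mean in *Shh*-/-. None of the 51 passed an adjusted p under 0.05 in limma, 5 passed 0.10 (all above WT), where 5.06% of all tested genes did, and 15 had an unadjusted p under 0.05, where 24.8% did. The 5 were *Eng*, *Msx1*, *Msx2*, *Atoh8* and *Tbx3*.

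Among 11 BMP target genes, 9 had both *Shh*-/- pools above both WT pools (38.0% of all tested genes), and 8 had an unadjusted p under 0.05, where 24.8% of all tested genes did. Their median log2 fold change was 0.65, and 0.39 after correction for GC content and length. *Msx1*, a homeobox gene of BMP-responsive mesenchyme and cranial neural crest, was at 74.6 and 36.3 TPM in *Shh*-/-, against 9.02 and 3.47 TPM in WT. Every mutant value was several times every WT value, and the log2 fold change was 2.99 (standard error 0.51, limma adjusted p = 0.0784). *Msx2*, its paralog, was at 25.7 and 14.1 TPM against 6.20 and 4.14 TPM (log2 fold change 1.72, standard error 0.34, limma adjusted p = 0.0933). In both genes the mutant pools differed from each other, the first being higher, and the neural crest markers were also higher in these pools, as given with the other markers. Their part in the *Msx1* and *Msx2* values was not tested.

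*Tbx2*, a T-box repressor downstream of BMP in heart and pharynx, was at 76.8 and 52.1 TPM in *Shh*-/-, against 38.0 and 23.5 TPM in WT (a log2 fold change of 1.06, limma adjusted p = 0.137). *Tbx3* had a log2 fold change of 0.97 (limma adjusted p = 0.0957) and *Atoh8*, a direct SMAD target, of 0.79 (limma adjusted p = 0.0956). *Id1*, a common readout of BMP activity, was at 294.3 and 232.6 TPM in *Shh*-/-, against 188.2 and 189.1 TPM in WT (a log2 fold change of 0.47, limma adjusted p = 0.144). *Id3* stood similarly at 0.49 (limma adjusted p = 0.108), whereas *Id2* was at −0.04 with overlapping pools. *Tbx3*, *Atoh8* and the *Id* genes were named after their values were seen.

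Among the SMADs and their regulators, 5 of 8 were above WT in the mean. *Smad9*, a receptor-regulated SMAD, was at 4.60 and 3.68 TPM in *Shh*-/-, against 8.40 and 6.48 TPM in WT (a log2 fold change of −0.71, limma adjusted p = 0.146). The inhibitory *Smad7* was at 24.2 and 18.9 TPM against 17.7 and 9.47 TPM (log2 fold change 0.68, limma adjusted p = 0.255). *Smurf1*, a ubiquitin ligase for receptor-regulated SMADs, had a log2 fold change of 0.52 (limma adjusted p = 0.191).

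At the cell surface, *Eng*, the endoglin co-receptor of endothelium, was at 25.5 and 34.0 TPM in *Shh*-/-, against 15.8 and 15.8 TPM in WT (a log2 fold change of 0.86, limma adjusted p = 0.0972). The co-receptors *Tgfbr3* and *Rgma* had log2 fold changes of 0.54 and 0.27 (limma adjusted p = 0.223 and 0.326). All 4 other receptors of the family were above WT in the mean, with *Acvr1* at 0.37, *Acvr2a* at 0.31 and *Acvrl1* at 0.27 on the log2 scale and no limma adjusted p below 0.379. After correction for GC content and length 2 of these 4 were above WT. Endothelial markers were also higher in these pools, as given with the other markers, and their part in the value of *Eng* was not tested.

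Outside the cell, *Kcp*, which encodes a chordin-like protein known to enhance BMP signaling, was at 47.4 and 32.4 TPM in *Shh*-/-, against 20.0 and 10.7 TPM in WT (a log2 fold change of 1.36, limma adjusted p = 0.12). *Smoc2*, a matricellular gene of the SMOC family, was at 12.8 and 13.0 TPM against 25.1 and 19.3 TPM (log2 fold change −0.73, limma adjusted p = 0.113). Follistatin (*Fst*) was at 1.17 and 0.48 TPM against 2.06 and 1.63 TPM (log2 fold change −0.66, limma adjusted p = 0.228). The 15 other antagonists and modulators tested were split, 7 above and 8 below WT (3 above after median centring and 5 after correction for GC content and length). All 5 tested proteases that process BMPs or cleave chordin were above WT in the mean (4 of 5 after correction for GC content and length), led by *Bmp1*, a tolloid-type chordinase in spite of its name, at 75.0 and 58.4 TPM against 42.8 and 36.0 TPM (log2 fold change 0.74, limma adjusted p = 0.111). *Tll1*, its relative, and *Pcsk6*, a proprotein convertase, had log2 fold changes of 0.49 each (limma adjusted p = 0.222 and 0.208). The other ligands were low. *Gdf6* was the highest at 6.12 to 7.71 TPM over the 4 pools, *Bmp6* and *Bmp8b* were between 1.19 and 2.89 TPM, the pools of all 3 overlapped between genotypes, and the other 7 were under a mean of 1 TPM.

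**Figure D4:**
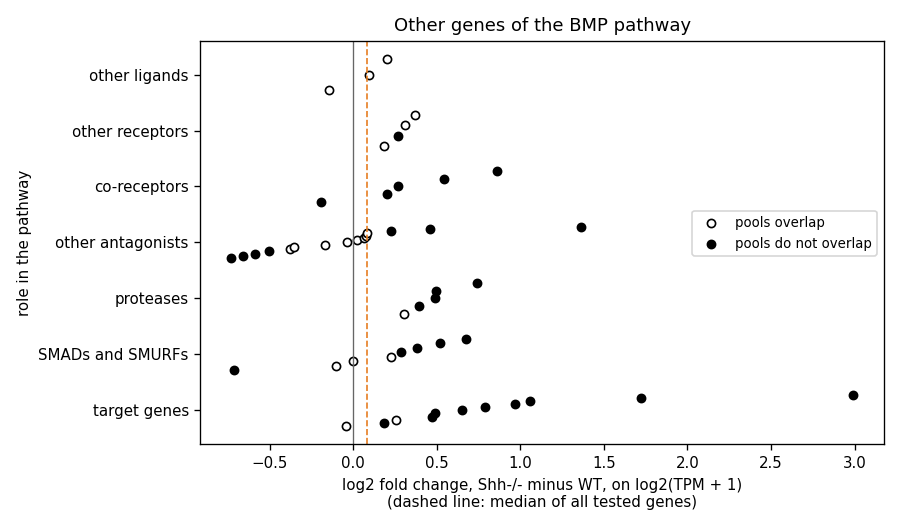
Log2 fold change (horizontal axis, *Shh*-/- minus WT on log2(TPM + 1)) of the 51 other tested genes of the BMP pathway by role (vertical axis), 1 point per gene, filled where the pools of the genotypes did not overlap. The 5 proteases all lie right of 0 (4 of 5 after correction for GC content and length), the target genes reach 2.99 (*Msx1*), and the 15 other antagonists lie on both sides.

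Marker genes of other cells differed between the same pools. The summed TPM of 12 neuron markers was 913.7 to 990.0 in *Shh*-/- and 273.1 to 325.5 in WT (11 of 12 higher in *Shh*-/-), that of 8 endothelial markers 342.6 to 399.0 against 206.4 to 222.5 (8 of 8 higher), that of 11 muscle markers 240.4 to 370.6 against 128.6 to 129.9 (11 of 11 higher, and 9 of 11 after median centring or correction for GC content and length), and that of 10 neural crest markers 192.7 to 202.7 against 101.7 to 129.5 (8 of 9 tested higher, and 7 after correction for GC content and length). Over 14 mesenchyme markers the sum was 964.9 to 1001 in *Shh*-/- and 898.2 to 904.4 in WT, with 7 of 14 higher (6 after median centring). Within that list *Foxf1*, the splanchnic mesenchyme factor downstream of HH, was at 0.85 and 9.57 TPM against 72.3 and 64.6 TPM, while *Twist1* was at 147.0 and 125.0 TPM against 46.1 and 43.8 TPM. The 15 epithelial markers summed to 726.5 to 839.8 TPM in *Shh*-/- and 762.1 to 778.6 TPM in WT, 9 higher and 6 lower, or 4 to 5 higher under centring, quantile normalization or correction for GC content and length. The 8 erythroid markers summed to 11719 to 17843 against 15846 to 18267. All 8 had a log2 fold change below 0, also under centring, quantile normalization or correction for GC content and length, and 6 had overlapping pools. The 6 macrophage markers summed to 10.0 to 12.0 against 9.14 to 9.37. No marker was at 0 in any library. Their part in the BMP values was not tested.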

How the data were processed

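RNA-seq was analysed from 4 libraries of E10.5 mouse larynx, 2 pools of *Shh*-/- and 2 of WT tissue. The pools yielded 200 to 310 ng of total RNA, of which 100 to 155 ng went into cDNA. The RNA integrity number was 8 and 7.7 in *Shh*-/- pools 1 and 2, and 7.7 and 9 in WT pools 4 and 6. The authors made stranded poly(A) libraries and sequenced single reads, which HISAT2 2.1.0 placed on mm10 and StringTie 1.3.6 turned into gene levels. The gene annotation is not given in the sources used here. The deposited tables give coverage (mean reads per base, not scaled between libraries), FPKM and TPM as the authors' tool computed them, and no read counts. Library depth was taken as the median ratio of coverage to FPKM. Whether the pools came from separate litters is not given, so p-values speak only for these pools. TPM keeps no counts, so precision rests on the spread between pools, within a gene and across genes.

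TPM values sharing an ID were added together, and log2(TPM + 1) was fitted in limma 3.58.1 (R 4.3.3; lmFit, then eBayes with its trend option) for the 16972 genes that averaged 1 TPM or more. The eBayes step draws the variance of each gene toward that of genes at a similar level. Standard errors, intervals and p-values therefore do not measure a gene's own pool spread alone. For *Bmpr1b* the pools differed by 0.0016 in *Shh*-/- and 0.048 in WT on the log2 scale, and its standard error was 0.15. No covariates were used, and p-values were adjusted by Benjamini-Hochberg over all tested genes with a threshold of 0.05. On this scale changes of weakly expressed genes come out too small. GC content and transcript length came from GENCODE M21 transcripts, which gave both for 99.5% of tested genes. All 37 mitochondrial genes were listed at 0 in every library, so a 0 may be a failed estimate, and no member was at 0. The script was tested on simulated data. Members and lists were chosen with earlier results of these data known. Genes named are the 10 members, *Shh*, *Ptch1* and *Gli1*, and from each role any gene past the threshold plus the 3 with the largest change. Exceptions are marked. The 8 marker lists cover epithelium, mesenchyme, neuron, neural crest, muscle, endothelium, erythroid cells and macrophages, and the markers named singly (*Epcam*, *Krt8*, *Pdgfra*, *Foxa1*, *Foxa2*, *Nkx2-1*, *Cdh1*, *Trp63*, *Foxf1*, *Foxf2*, *Twist1*) were chosen after their values were seen.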

Additional observations from a re-analysis of the deposited data

How the results depend on the processing

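No paired analysis was possible because the pools are numbered 1 and 2 in *Shh*-/- and 4 and 6 in WT and share no number. The count of called members stayed at 0 in all alternatives run but an adjusted p under 0.10, which gave 1 (*Bmp4*) and 5 other pathway genes. Over all tested genes, 123 passed in limma, 79 after correction for GC content and length, 69 with a pseudocount of 0.1, 858 at an adjusted p under 0.10 and 0 with no filter on TPM (5011 at an unadjusted p under 0.05). Without *Shh*-/- pool 1 or pool 2 the count was 0 (2762 and 3742 at an unadjusted p under 0.05), without WT pool 4 it was 21 and without WT pool 6 it was 16; the lone pool is then assumed to vary like the other group. Of 137 member values under an alternative, 133 kept their direction and side of the threshold and 4 turned, all of *Bmp7*: −0.17 after correction for GC content and length, −0.033 after median centring, −0.062 after quantile normalization and −0.17 without WT pool 6 (−0.17 to 0.36 with 1 pool left out). The cause was not tested. *Chrd* could not be fitted on FPKM, and *Chrd* and *Bmp2* not at a mean TPM of at least 5, since they are below those limits. Over the alternatives other than leaving out a pool, the limma adjusted p of *Bmp4* ran from 0.092 to 0.172.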

Other observations

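Several genes of the BMP lists were under a mean of 1 TPM and entered no test. They were chosen here after their values were seen. *Gdf5*, a ligand gene of joints and cartilage, was at 1.77 and 0.495 TPM in *Shh*-/-, against 0.114 and 0.327 TPM in WT. *Bmp3* was at 0.273 and 0.657 TPM against 0.641 and 1.22 TPM, with overlapping pools. *Bmp15*, *Chrdl2*, *Vwc2l* and *Tll2* were listed at 0 in every library.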
